A study of Mus musculus with 3 samples.

Results

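Lungs of mice with a conditional knockout that were irradiated and received a drug were compared with the lungs of non-irradiated wild-type mice, by the share of each cell type among the recovered cells and by the genes that each cell type expressed. The comparison holds 22977 of the 28782 cells kept in the series, 9886 from the library of the irradiated conditional knockout with drug (called the knockout library below) and 13091 from the library of the non-irradiated wild-type control (the control library). Cells were kept with at least 250 detected genes and at most 15% of their unique molecular identifiers (UMIs, a count of captured RNA molecules) from the 13 mitochondrial genes. Cell types were taken by 6 gates on the UMIs of their marker genes. B cells needed at least 2 UMIs of Cd79a, T cells at least 2 of Cd3d, Cd3e and Cd3g together, and natural killer (NK) cells at least 1 of Ncr1 and none of the 3 Cd3 genes. Endothelial cells needed at least 2 UMIs of Pecam1 and Cdh5 together, fibroblasts at least 3 of Col1a1, Col1a2 and Col3a1 together, and epithelial cells at least 1 of Epcam with 0 of the pan-leukocyte gene Ptprc.

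The series consists of 3 single-cell libraries of mouse lung made with the droplet-based 10x 3′ method, 1 library per group. The third library, from irradiated wild-type mice, is given beside the others where it helps to place a value. The labels name neither the gene that was knocked out nor the drug, and the level of the targeted gene was therefore not checked. Radiation dose, time after irradiation, the driver of the conditional deletion and the number, strain and age of the mice were not given in the sources used here. The control differed from the knockout library in genotype, drug and irradiation together, so their parts, and differences between animals or between preparations, cannot be told apart. With 1 library a side no spread between animals could be measured, and no test was made. Values are given for both libraries with 95% intervals in brackets where shown, taken from the exact binomial distribution for shares and the exact Poisson distribution for counts. They cover counting error only. Where the knockout and the irradiated wild-type library are both set against the control, they share that control.

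Ionising radiation breaks DNA and activates the transcription factor p53, which turns on genes of cell cycle arrest and cell death such as Cdkn1a, Gdf15 and Mdm2. In the lung the capillary endothelium and the alveolar epithelium are known for their sensitivity to radiation, and lymphocytes and fibroblasts take part in the inflammation and scarring that can follow. Interferons, which can be released after DNA damage, turn on antiviral genes such as Isg15 and Ifit1 as well as the MHC class I genes that present antigen to T cells.

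T cells were the largest gate of both irradiated libraries and a much smaller part of the control. They made up 51.6% of the kept cells in the knockout library (5103 cells, interval 50.6 to 52.6%) against 14.2% in the control (1859 cells, 13.6 to 14.8%), a ratio of 3.63 (3.47 to 3.81), and 46.1% in irradiated wild-type. NK cells were at 4.68% (4.28 to 5.12%) against 2.43% (2.17 to 2.71%), a ratio of 1.93, while B cells were lower at 7.72% (7.20 to 8.26%) against 10.9% (10.4 to 11.4%), a ratio of 0.709. Lymphocytes of any gate came to 63.3% in the knockout library, 27.1% in the control and 61.1% in irradiated wild-type.

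The lining and supporting cells of the lung were the smaller share. Endothelial gate cells were 7.03% of the knockout library (695 cells, 6.53 to 7.55%) against 22.5% of the control (2945 cells, 21.8 to 23.2%), a ratio of 0.313 (0.289 to 0.338). Fibroblasts were at 10.04% (9.46 to 10.7%) against 30.2% (29.4 to 31.0%), a ratio of 0.333 (0.312 to 0.355). Epithelial cells were few in both, 190 cells or 1.92% (1.66 to 2.21%) against 448 cells or 3.42% (3.12 to 3.75%), a ratio of 0.562 (0.475 to 0.664). All 3 intervals of the ratios lie below 1. Shares of recovered cells sum to a whole, so a higher share of lymphocytes and a lower share of the other cells cannot be told apart here, nor can the share in the tissue and the share that survived dissociation.

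**Figure D1:**
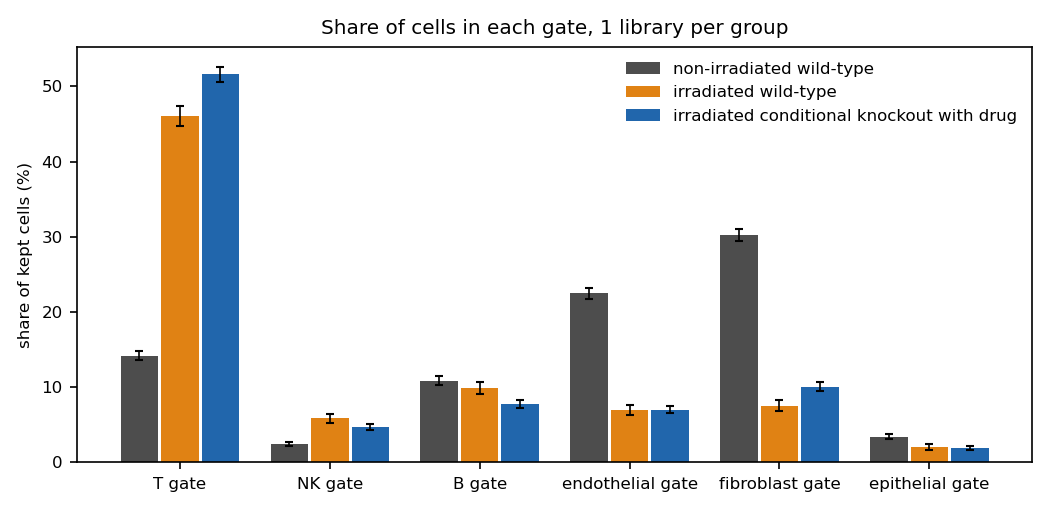
Share of kept cells in each of the 6 gates (percent, y axis) in the 3 libraries, 1 library per group, with bars from 0 and exact binomial 95% intervals as error bars. T cells stand at 51.6% in the knockout library against 14.2% in the control, and endothelial cells at 7.03% against 22.5%, with the irradiated wild-type library near the knockout library in both.

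Ratios inside each compartment do not depend on the balance between compartments. Among cells of a lymphocyte gate that passed no other gate, T cells were 81.8% in the knockout library and 51.8% in the control, and B cells 11.1% and 39.7%. NK cells were at 7.11% and 8.56% of the same cells. Among endothelial, fibroblast and epithelial cells that passed only their own gate and had no Ptprc UMI, fibroblasts were 70.8% against 59.1% and epithelial cells 10.5% against 5.02%. Endothelial cells were 18.7% against 35.9%, the 1 type of the 3 that was lower within this set. Shares within a set also sum to a whole. As shares of all kept cells, these endothelial, fibroblast and epithelial cells were all lower, at ratios of 0.149, 0.342 and 0.597.

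What each gate held differed between the libraries, and this touches the values that follow. In the endothelial gate 60.3% of the knockout library's cells had a Ptprc UMI against 22.7% in the control, and only 38.8% against 84.0% had a UMI of Cdh5, the junction protein that defines endothelium. Pecam1, the other gate gene, is also carried by leukocytes. Summed T cell markers in that gate were at 1688 depth-scaled counts (CPM) in the knockout library and 308 in the control. For this reason the endothelial, fibroblast and epithelial cells are also described in cells that passed only their own gate and held no Ptprc UMI, a choice made after the data were seen. By that rule endothelial cells were 205 or 2.07% of the knockout library against 1823 or 13.9% of the control, a ratio of 0.149 (0.129 to 0.172), and the endothelial markers in them were at 11230 against 14290 CPM.

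RNA of other cell types inside a gate also differed. Alveolar type 2 cell markers, led by surfactant genes, summed to 2880 CPM in the control's T cells and 331 in those of the knockout library, and Sftpc UMIs were found in 98.9% of the control's T cells against 33.9%. Endothelial markers in T cells were at 448 against 83.6 CPM, and fibroblast markers at 628 against 177. Genes of other cell types that were lower in the knockout library in every gate went in the same direction as these sums. Some of those genes are themselves part of the sums. Cells that passed more than 1 gate were 8.74% of T cells in the knockout library and 21.3% in the control. The parts of free RNA and of doublets in any lower gene were not tested. The median UMIs per cell were 6071 in the knockout library and 4899 in the control, with total UMIs of 76667310 and 85984536. The 2 libraries shared 46 cell barcodes, 0.407% of those listed for the knockout library.

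For each gate, UMIs were summed over its cells and scaled to CPM. To each CPM 5 was added before ratios were taken, and fold and log2 values below are on that scale, which understates the change of low genes. Values written as at least a given fold are set against a floor of 3 UMIs instead, with nothing added. Genes with 30 UMIs or more in the library with the higher CPM were tested, and those at least 2-fold different were called apart. Sums over cells cannot separate fewer expressing cells from less RNA per cell. In T cells 29 of 12135 tested genes were higher in the knockout library (0.239%) and 511 were lower (4.21%), in NK cells 45 (0.653%) and 183 (2.66%) of 6892, and in B cells 54 (0.537%) and 787 (7.83%) of 10051. In fibroblasts 96 (0.748%) and 134 (1.04%) of 12830 genes were apart. The endothelial gate had 562 higher (4.47%) and 1003 lower (7.97%) of 12585, and the epithelial gate 588 (5.87%) and 516 (5.15%) of 10023. Scaling by the median of ratios in place of totals moved these last splits to 724 and 737 in the endothelial gate (49.6% higher in place of 35.9%) and to 400 and 658 in the epithelial gate (37.8% in place of 53.3%). In cells of only 1 gate with no Ptprc UMI, endothelial cells had 180 higher (2.12%) and 160 lower (1.88%) of 8500, fibroblasts 59 (0.503%) and 40 (0.341%) of 11732, and epithelial cells 621 (7.67%) and 285 (3.52%) of 8096. Among genes whose level in the gate reached 20% of the highest gate, 19 were higher and 11 lower in T cells, 26 and 33 in NK cells, 27 and 48 in B cells, 65 and 18 in fibroblasts, 510 and 894 in the endothelial gate and 539 and 173 in the epithelial gate. Most lower genes of T, NK and B cells and fibroblasts were therefore at a low level there compared with another gate, while most of those in the endothelial gate were not.

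T cells of the knockout library carried more RNA of the natural-killer-like cytotoxic program. Of 20 tested genes of cytotoxic lymphocytes, 13 were at least 1.5-fold higher and 0 lower, where 1.08% of all tested genes were higher and 9.24% lower, and the list's median log2 ratio was 0.84 against 0.01 for all genes. Klrc2, an activating receptor of the NKG2 family, was at 49.0 CPM (46.9 to 51.2) against 14.6 (12.7 to 16.7) and at 51.5 in irradiated wild-type. Its partner gene Klrc1, which encodes the inhibitory NKG2A, was 2.40-fold higher at 67.1, and the lysosomal protease gene Ctsw at 107 against 42.8. Xcl1, a chemokine that draws cross-presenting dendritic cells, was at 420 CPM (413 to 426) against 178 (171 to 185). All 4 levels were near those of irradiated wild-type, whose Xcl1 was at 421. Gzmb, the granzyme that kills target cells, was close in both, 248 against 210, and Gzma was at 184 against 116.

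The difference was also visible as a share of cells. After each cell was thinned to 1000 UMIs, 8.89% of T cells in the knockout library (8.12 to 9.70%) had a UMI of Klrc1 or Klrc2 against 3.45% in the control (2.66 to 4.38%), and 26.0% against 11.2% without thinning. In fibroblasts, which should lack both genes, the thinned shares were 1.06% and 0.418%. The median depth was 6914 and 6828 UMIs in T cells and 7771 and 7333 in fibroblasts. Xcl1 followed the same order, with thinned shares of 14.1% against 6.19%, unthinned shares of 28.6% against 11.9%, and thinned shares in fibroblasts of 3.30% and 1.18%.

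Genes of interferon-γ response and some inhibitory receptors were also higher in T cells. Of 21 tested interferon-γ-induced genes 9 were at least 1.5-fold higher and 0 lower, with a median log2 ratio of 0.51. Irgm1, a GTPase of that response, was at 94.2 CPM (91.2 to 97.1) against 40.0 (36.9 to 43.4), and at 51.7 in irradiated wild-type. The serpin gene Serpina3f was at 19.6 against 6.11, and Gbp6, a guanylate-binding protein, at 12.7 against 3.92. Ifng itself, the cytokine, was at 73.1 against 38.7. Of 18 tested genes of inhibitory receptors and regulatory T cells 5 were higher and 2 lower, with a median of 0.40, beside 3 of 15 MHC class I genes higher with a median of 0.44. Lag3 was at 10.00 CPM against 1.51, and Pdcd1, which encodes PD-1, at 49.5 (47.4 to 51.7) against 20.7 (18.5 to 23.2). The regulatory T cell genes Foxp3 and Ctla4 were close in the knockout library and the control, at 14.0 against 12.2 and 299 against 290. In irradiated wild-type Foxp3 was at 38.8.

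Immediate early genes, the transcription factors switched on within minutes of a stimulus or of handling, were lower. Of 23 tested 7 were at least 1.5-fold lower and 0 higher, with a median log2 ratio of −0.45. Fos was at 131 CPM against 301, Fosb at 143 against 317 and Egr1 at 117 against 258. Each was 2.15- to 2.25-fold lower in the knockout library. The genes of naive T cells and of exit from tissue were mixed, with 1 of 17 higher and 3 lower and a median of −0.11. S1pr1, the receptor that lets T cells leave tissue, was at 208 against 369 CPM, and its regulator Klf2 at 836 against 1340 and at 397 in irradiated wild-type. Lef1, a factor of naive T cells, was at 141 against 199.6 CPM and was seen in 11.4% against 18.4% of thinned T cells (44.8% against 58.0% unthinned).

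Of the type 17 program of lung γδ T cells, Il17a and Trdc were close in both libraries. They were summed over all T cells, since γδ T cells were not gated apart. Il17a was at 1055 CPM against 956 and the γδ receptor constant gene Trdc at 333 against 277, below the 1.5-fold mark. Il22, the epithelial-repair cytokine, was an exception, 4.88-fold lower at 6.27 CPM, but 60.6% of its UMIs in the control came from 3 cells. Il10 was at 4.99 against 18.5. Among the genes that stood farthest apart, the trefoil factor Tff1 was at 21.0 CPM against 1.03 and at 60.2 in irradiated wild-type, Ly6c2 at 84.0 against 28.6, and Pxdc1 at 32.0 against 74.7. Cpa3, a mast cell protease, was at 8.76 against 0.137, with 91.1% of its UMIs in 3 cells. Of 30 tested targets of p53, 0 were higher and 3 lower in T cells, with a median of 0.07.

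NK cells kept their cytotoxic genes at similar levels. Of 18 tested cytotoxic genes 0 were at least 1.5-fold higher or lower, where 2.89% and 6.92% of all tested genes were. Gzma was at 7078 CPM (6979 to 7179) against 6391 (6279 to 6504), Gzmb at 4363 against 3823, and Prf1, which encodes the pore-forming perforin, at 998 against 923. Ccl5, a chemokine stored in cytotoxic cells, was at 25561 against 20322. Xcl1 ran the other way from T cells, at 1799 CPM against 2675, and Ifng was at 544 against 728. Neither passed 1.5-fold.

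The 2 lists with the most lower members in NK cells were those of other cell types, collagens and matrix (21 of 27 lower) and capillary endothelial identity (15 of 19 lower). The marker sums of those cells were lower too, but they share genes with these lists and are not a separate measure. Of 20 tested immediate early genes 5 were lower and 0 higher, with a median log2 ratio of −0.40, and Egr1 was at 95.8 CPM (84.6 to 108) against 290 (267 to 315). Of 15 tested chemokine genes 9 were lower and 0 higher, with a median of −1.02. The neutrophil-attracting Cxcl2 was at 63.5 against 466 CPM and Cxcl1 at 5.51 against 68.9, but 3 cells held 70.4% and 73.9% of the control's UMIs. With cells thinned to 1000 UMIs 5 chemokine genes could be tested and their median was 0.00. Of 25 tested genes of NK maturation 2 were lower and 0 higher: Itga1, an integrin of tissue-resident innate lymphocytes, at 12.9 against 38.6, and Thy1 at 23.5 against 68.4. The genes farthest apart in this gate belong to other cell types. Igfbp5 was at 2.57 against 72.0, Igfbp6 at 18.0 against 159, and the fibroblast gene Pi16 at 1.47 against 30.8. The fibroblast markers, Pi16 among them, were at 446 against 1014 CPM. Alas2, the haem synthesis enzyme of red cells, was higher at 37.1 against 8.74. The erythroid markers, which include it, were at 15103 against 4401. Ly6k was at 11.8 against 1.03 in 7 and 2 cells, E2f6, a transcriptional repressor, at 13.2 against 3.08 and Ccdc28a at 11.8 against 2.06. Mustn1 was at 5.51 against 59.1, and Serpinb2 had 0 UMIs against 19.0 CPM in 3 cells of the control.

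B cells of the knockout library had more RNA of several MHC class I and interferon-γ-induced genes, while other lists of these responses did not follow. Of 15 tested MHC class I genes 7 were at least 1.5-fold higher and 0 lower, where 1.77% of all tested genes were higher and 15% lower, with a median log2 ratio of 0.52 against −0.08 for all genes. Tap1, which carries peptides to MHC class I, was at 94.6 CPM (86.7 to 103) against 42.7 (38.3 to 47.4), and the immunoproteasome subunit Psmb9 at 59.7 against 25.7. H2-Q7 was at 355 against 197 and H2-K1 at 1135 against 833. Irf1, the factor that drives this response, was at 590.0 CPM (570.1 to 611) against 220 (209.6 to 230.0) and at 581 in irradiated wild-type. Serpina3g was at 71.5 against 23.8 and Serpina3f at 32.0 against 3.68, both serpins also higher in T cells. Glipr1 was at 104 against 34.2. Of 16 interferon-γ-induced genes 7 were higher and 1 lower, with a median of 0.25. Type I interferon-stimulated genes had 2 of 20 higher and 0 lower with a median of 0.05, and MHC class II genes 0 of 10 higher or lower with a median of 0.23.

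Lower in B cells were again immediate early genes, with 9 of 23 lower and 1 higher. Fosb was at 150 CPM (140 to 161) against 540 (524 to 556), Klf4 at 107 against 307 and Fos at 167 against 422. Each lay near the irradiated wild-type level, 183 for Fosb and 162 for Fos. Klf2, a regulator of B cell placement, was at 812 against 1532. Ahnak, a large scaffold protein gene, was at 54.5 against 177, and Rell1 at 16.6 against 56.3. Cox4i2, a respiratory chain subunit gene, was at 0 in the knockout library's B cells against 11.8 CPM, at least 21.9-fold lower against a floor of 3 UMIs in the gate. Pericyte and smooth muscle markers in the B gate were at 8.58 against 450 CPM. The part of RNA from such cells in these lower genes was not tested.

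The maturation list of B cells was mixed, with 3 of 27 higher and 4 lower. Mzb1, a chaperone of antibody secretion, was at 202 CPM against 77.6, while Jchain, which links secreted antibodies, was at 15.4 against 32.7 and at 224 in irradiated wild-type. The list of unfolded protein and integrated stress genes had 3 of 19 higher and 1 lower: Chac1, which degrades glutathione, was at 17.3 against 4.90, Asns, the asparagine synthetase, at 11.3 against 2.33, and the factor Atf5 at 8.23 against 39.5. Cell cycle genes had 11 of 19 higher with a median of 0.67, but in cells of only 1 gate the median of 11 tested members was 0.06. Ube2c and Pclaf, both of dividing cells, had 89.1% and 89.0% of their knockout UMIs in 3 cells. Targets of p53 were not higher as a group, with 1 of 26 higher and 4 lower and a median of −0.05.

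**Figure D2:**
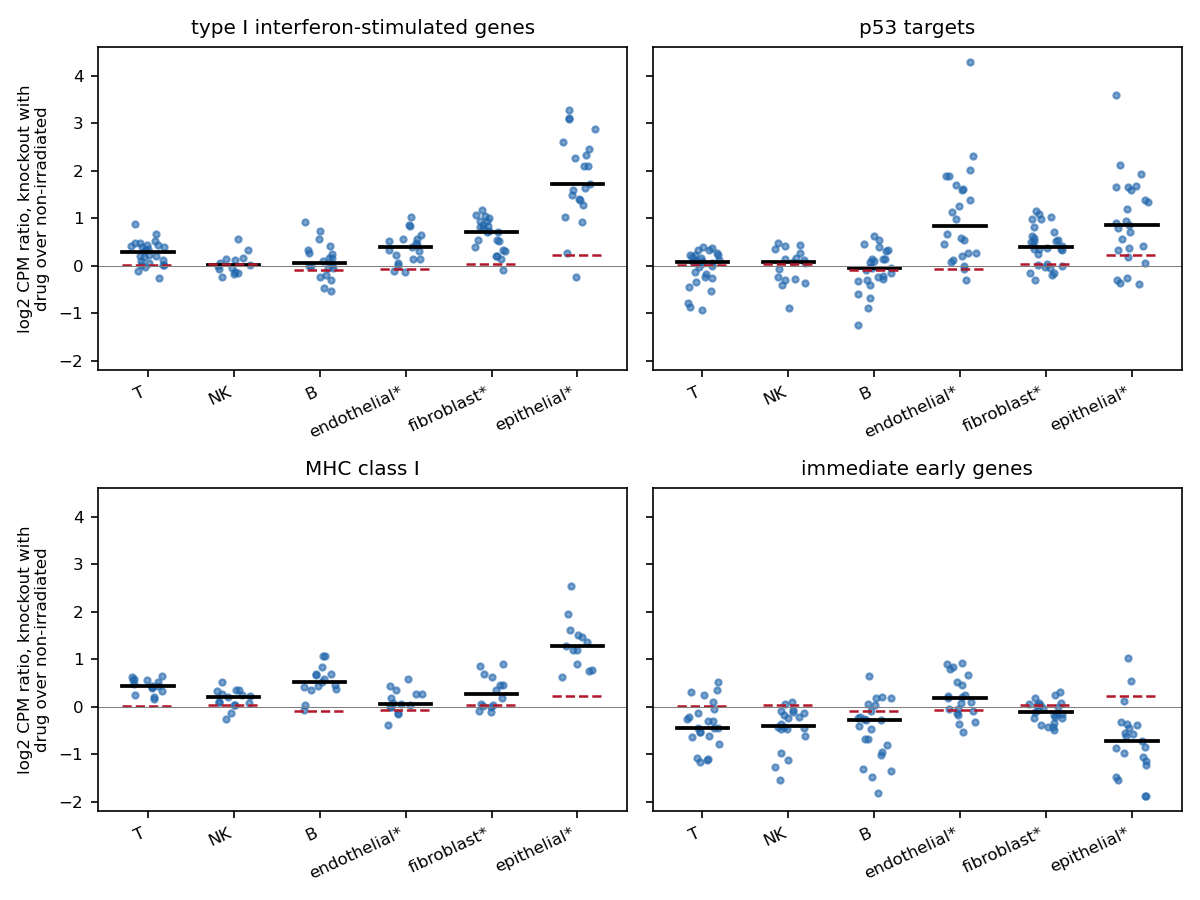
Log2 ratio of CPM (5 CPM added) of the knockout library over the control, by gate (1 library per group). Shown are the tested members of the type I interferon-stimulated, p53 target, MHC class I and immediate early gene lists. Each point is a gene, the black line the list's median and the red dashed line the median of all tested genes in the gate, and gates with an asterisk hold cells that passed only that gate with no Ptprc UMI. Interferon-stimulated genes have a median of 1.72 in the epithelial cells so chosen, and p53 targets 0.83 in the endothelial cells so chosen.

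Endothelial cells line the vessels, and in the lung most form the capillary bed of the alveoli. In the whole endothelial gate the genes farthest apart were those of other cells. The basophil genes Prss34 and Mcpt8 were at 278 and 195 CPM against 0 and 0.0952, with all of the Prss34 UMIs in 3 cells. Ctsg and Mpo, genes of granulocyte precursors, were at 84.8 and 34.0 against 0 and 0.143, again almost all from 3 cells. Hist1h2ap, a histone gene, was at 167 against 11.4 and at 175 in irradiated wild-type. Lower in that gate were Ccl21a and Mmrn1 of lymphatic vessels, at 44.3 against 468 and 7.98 against 93.5. The capillary identity list had 0 of 28 members at least 1.5-fold higher and 23 lower, where 11.1% and 20.9% of all tested genes were, with a median log2 ratio of −1.48. The share of leukocytes in the gate differed, and its part in these values was not tested. The description therefore continues in the 205 and 1823 cells with no other gate and no Ptprc UMI.

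In those cells p53 targets were higher as a group. Of 24 tested 14 were at least 1.5-fold higher and 0 lower, where 5.6% and 7.2% of all tested genes were, with a median of 0.83 against −0.08 for all genes. Gdf15, a secreted stress hormone, was at 416 CPM (379 to 455) against 16.4 (13.9 to 19.2), 19.7-fold higher, and at 463 in irradiated wild-type. Cdkn1a, the p21 inhibitor of the cell cycle, was at 845 against 256, and the death receptor Eda2r at 27.1 against 1.52. Pmaip1, which encodes the death factor NOXA, was at 80.5 against 16.0 and Mdm2, the feedback inhibitor of p53, at 144 against 63.6. By share of cells, 43.4% (36.0 to 51.1%) of 175 thinned cells had a Cdkn1a UMI against 20.7% (18.7 to 22.7%) of 1621, and 71.2% against 49.6% unthinned. The knockout library was not above irradiated wild-type for Gdf15, Cdkn1a, Mdm2 or Trp53inp1, which was at 133 against 32.4 in the control and 175 in irradiated wild-type.

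Capillary identity genes went in both directions. Of 27 tested identity genes 4 were higher and 10 lower, with a median of −0.35. Gpihbp1, which carries lipoprotein lipase on general capillaries, was at 271 CPM against 791, Hpgd, a prostaglandin-degrading enzyme, at 722 against 1907, and Tmem100 at 574 against 1451. Npr3, the natriuretic peptide clearance receptor, was at 101 against 413. These 4 genes were lower by 2.52- to 3.93-fold. Higher were Car4, a carbonic anhydrase of aerocyte capillaries, at 595 against 363, and Apln, which encodes apelin, at 216 against 67.8. Vwf, of larger vessels, at 955 against 719, and Plvap, of fenestrae, at 603 against 830, did not reach 1.5-fold. Among thinned cells a Gpihbp1 UMI was present in 17.7% (12.4 to 24.2%) against 44.4% (42.0 to 46.9%) and a Car4 UMI in 28.0% against 19.7% (37.1% against 36.4% unthinned), so the makeup of the cells and the level per cell cannot be told apart from these sums. Without thinning Gpihbp1 was in 35.1% against 67.7%, and in 0% and 1.65% of thinned epithelial cells, which should lack it. Median depth was 4199 and 3323 UMIs in endothelial cells and 15195 and 12759 in epithelial cells.

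Vessel growth and stability signals were mostly lower or close. Of 24 tested genes of VEGF, angiopoietin and Notch signalling 9 were lower and 0 higher, with a median of −0.37. Tek, the angiopoietin receptor, was at 231 CPM against 547 and the Notch ligand Dll4 at 65.6 against 119. Kdr, the main VEGF receptor, was an exception at 964 against 718, and at 1939.5 in irradiated wild-type. Leukocyte adhesion and thrombosis genes had 7 of 16 higher and 1 lower: Procr, the protein C receptor, was at 59.5 against 10.3, and the venular chemokine receptor Ackr1 at 69.1 against 8.24. Selp, P-selectin, was at 173 against 33.2 with 66.7% of its knockout UMIs in 3 cells.

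Glycolysis and hypoxia genes were also higher, 13 of 20 with 1 lower and a median of 0.75. Ankrd37 was at 213 CPM against 21.2, Bnip3, of mitochondrial clearance, at 79.6 against 18.9, and Ldha, the lactate dehydrogenase, at 277 against 133. The leukotriene synthase gene Ltc4s was at 161 against 3.79, in 34 of 205 cells against 33 of 1823. Il6 and Ubd were at 49.9 against 2.06 and 42.9 against 1.30, with 93.0% and all of their knockout UMIs in 3 cells. Cell cycle genes had 11 of 15 higher, but Mki67, Top2a, Cenpf and Cdk1 drew 62.7 to 81.3% of their knockout UMIs from 3 cells. Among the genes farthest lower, Igfbp5 was at 7.87 against 157, Casc4 at 69.1 against 335, Maf at 10.5 against 64.4 and Reln at 7.87 against 46.4. Hmcn1, a basement membrane protein gene, was at 104 against 399. Igfbp5 and Maf were lower beside a sum of lymphatic markers of 369 against 1286, whose part was not tested. Reln is itself part of that sum. Of 19 interferon-stimulated genes 4 were higher, with Isg15 at 109 against 67.6.

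**Figure D3:**
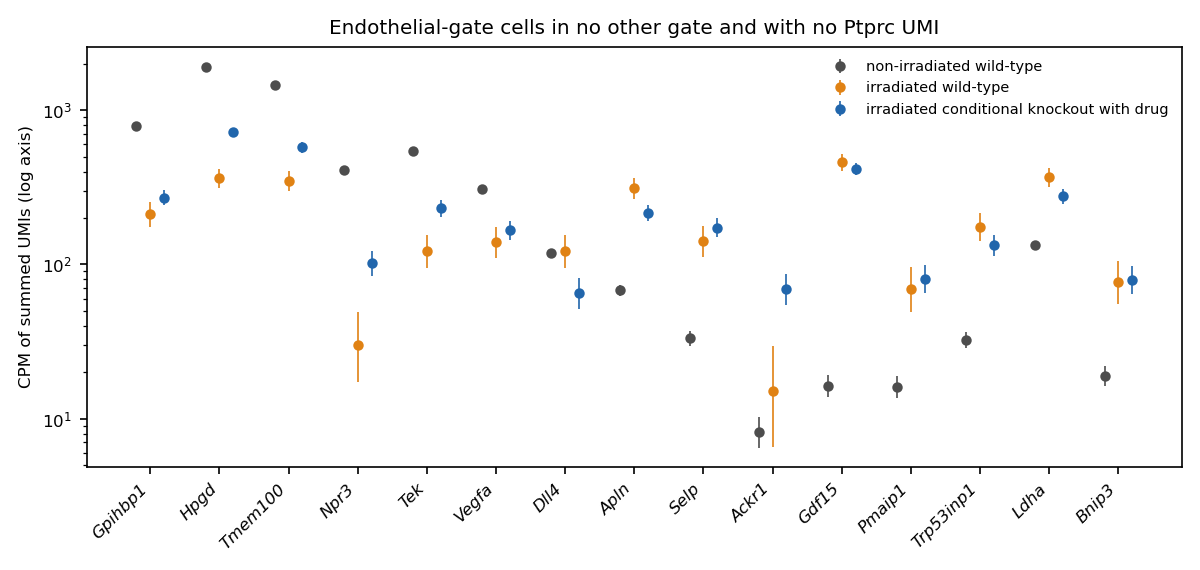
CPM (log axis) of endothelial genes in the cells that passed only the endothelial gate with no Ptprc UMI, in the 3 libraries, with exact Poisson 95% intervals and 1 library per group. Gdf15 is at 416 in the knockout library against 16.4 in the control, and Gpihbp1 at 271 against 791.

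Fibroblasts make the collagen and elastin of the lung. The matrix list had 10 of 31 tested genes at least 1.5-fold higher and 0 lower, where 2.66% of all tested genes were higher and 2.7% lower, with a median log2 ratio of 0.34 against 0.03 for all genes. Eln, elastin, was at 2535 CPM against 907 and at 1991 in irradiated wild-type. Tnc, tenascin C of wounds, was at 131 against 44.4, and Lox, which cross-links collagen and elastin, at 293 against 144. Fn1, fibronectin, was at 1263 against 643. All 4 were also at least 1.5-fold higher in fibroblasts with no other gate and no Ptprc UMI, where Eln was at 3029 against 1028 and 11 members of the list were higher and 0 lower (2.11% and 1.17% of all tested genes). The myofibroblast and TGF-β feedback list did not follow, with 2 of 22 higher and 1 lower and a median of −0.11. Myl9, a contractile light chain, was at 349.7 against 527. Pericyte and smooth muscle markers, which share Acta2 and Cnn1 with that list, were at 2258 against 3152 CPM in the gate. In irradiated wild-type they were at 1343. The part of these cells in the values of the gate was not tested.

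Interferon-stimulated genes had a larger median than the matrix list in fibroblasts. Of 25 tested 15 were higher and 0 lower, with a median of 0.70, and 13 of 23 in fibroblasts of only this gate. Irf7, the master factor of the response, was at 33.2 CPM against 11.8, Ifit3 at 46.5 against 17.9, Zbp1, a sensor of nucleic acid, at 31.7 against 11.7, and Isg15 at 71.4 against 33.8. Irradiated wild-type was near them, with Irf7 at 30.3 and Isg15 at 77.7. Acute phase and complement genes had 5 of 15 higher and 0 lower: Lcn2, which withholds iron, was at 388 against 102, haptoglobin Hp at 398 against 110, Saa3 at 1135 against 516 and complement C4b at 725 against 403. Lcn2 and Hp were in the knockout library above irradiated wild-type, at 199 and 207, with 39.8% of the Lcn2 UMIs in 3 cells.

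The damage and clock genes moved less. Of 31 p53 targets 9 were higher and 0 lower with a median of 0.32, with Cdkn1a at 254 CPM against 128, Eda2r at 20.6 against 6.33 and Zmat3 at 46.3 against 19.9. Gdf15, the gene farthest apart in endothelium, was at 43.8 against 35.8. Circadian outputs had 1 of 16 higher and 3 lower, among them Dbp at 9.64 against 38.3. Time of day at collection is not given in the sources used here. The protease and inhibitor list had 6 of 19 higher and 2 lower. Mmp2, a gelatinase, was at 796 against 384 and the inhibitor gene Serpina3n at 646 against 327. Mmp9 was at 19.5 against 2.24 with 92.9% of its knockout UMIs in 3 cells, and Mmp8, a collagenase of neutrophils, at 14.0 against 1.13, beside neutrophil markers at 698 against 183 CPM.

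Of the genes chosen by size, Chl1, a neural adhesion molecule, was at 59.8 CPM against 5.31, in 124 and 78 cells, and at 53.2 in irradiated wild-type. Hist1h2ap was at 50.3 against 4.73, with 74.5% of its knockout UMIs in 3 cells. Elane, of granulocyte precursors, was at 94.9 against 0.0581, almost all of it in 3 cells. Gabra3, a GABA receptor subunit, was lower at 4.77 against 33.5, and Stbd1, a glycogen-binding protein, at 26.8 against 96.5. Vwc2, an antagonist of bone morphogenetic proteins, had 0 UMIs in 993 fibroblasts of the knockout library against 310 UMIs in 179 cells of the control, at least 28.3-fold lower. The Wnt antagonist Sfrp1 was at 239 against 79.0 and Spp1, osteopontin, was 4.98-fold higher than its 45.9 in the control with 59.8% of its UMIs in 3 cells. In fibroblasts of only this gate Cytl1 was at 91.8 against 2.64, Igfbp2 at 62.7 against 2.20 and Chad, of cartilage matrix, at 20.2 against 0.176, each with over 95% of its knockout UMIs in 3 cells, while Mmp3, stromelysin, was 2.62-fold lower at 92.2.

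Epithelial cells were the fewest, and their makeup differed. Cells that also passed another gate were 39.5% of the gate in the knockout library and 43.1% in the control. In the 115 and 255 cells with no other gate, markers of alveolar type 2 cells, which secrete surfactant, summed to 37901 CPM in the knockout library against 132928 in the control, and those of type 1 cells, which exchange gas, to 2648 against 1371. Markers of ciliated cells were at 1894 against 802 and of club cells, the secretory cells of the airway, at 191949 against 139281. Sftpc, surfactant protein C, was seen in 31.6% (23.2 to 40.9%) of thinned cells against 84.7% (79.5 to 89.0%), and in 60.9% against 99.2% without thinning. In thinned endothelial cells, which should lack it, the shares were 13.1% and 73.7%, so much of the control's share was of the size found in cells that should lack it. Foxj1 or Ccdc153, both of ciliated cells, were in 21.9% against 8.68% (24.3% against 16.9% unthinned). The lists below were measured in cells that differed in this makeup, and its part in their values was not tested. The surfactant list shares genes with the type 2 markers.

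Interferon-stimulated and MHC class I genes were higher in epithelial cells of the knockout library. Of 22 interferon-stimulated genes tested in the whole gate 17 were at least 1.5-fold higher and 0 lower, where 15.6% and 11.3% of all tested genes were, and the median log2 ratio was 1.32 against 0.10 for all genes. In cells with no other gate 19 of 21 were higher and 0 lower, where 23.4% and 8.08% of all tested genes were, and the median was 1.72. Isg15, a ubiquitin-like antiviral protein, was at 194 CPM against 20.2 and at 129 in irradiated wild-type. Ifit1 and Ifit3, which bind viral RNA, were at 40.3 against 3.60 and 53.8 against 3.76. These levels rest on few cells: 3 cells held 55.1% of the knockout library's Isg15 UMIs and 76.1% of those of Ifit3. With cells thinned to 1000 UMIs the list could be followed in 1 member alone, Ifi27l2a, whose log2 ratio was −0.34, and Ifit3b turned to −0.55. In cells with no other gate the thinned share with an Isg15 UMI was 9.65% against 0.826%, and 10.6% in irradiated wild-type, and the unthinned share was 33.9% against 14.5%. MHC class I genes had 11 of 14 higher and a median of 1.02, with H2-K1 at 1675 against 607 and only 13.4% of UMIs in 3 cells. B2m, the light chain of MHC class I, was at 1285 against 513.

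The promoters of the interferon-stimulated genes printed here show the letters through which interferon factors are known to act. The motif, GAAA, any 2 bases and GAAA again (on the other strand TTTC, any 2 bases and TTTC), was searched on both strands in 300 bases from 250 before to 50 after each start site (RefSeq, GRCm38.p6), and 1079 of 27025 promoters held it (3.99%). Of the 28 genes in the list 19 matched the table, and 12 of these 19 (63.2%) held it. A match is a run of letters and not a measured site. The 250 bases before the start of Isg15 (chr4:156200819-156201068, minus strand), Ifit1 (chr19:34640639-34640888, plus strand) and Ifit3 (chr19:34583279-34583528, plus strand) are given 5′ to 3′ in the direction of the gene, with the matches in capitals. They are the 3 genes of the list whose epithelial values are given above. Other members hold no match, among them Irf7, which was also higher at 53.8 against 6.58 CPM in epithelial cells. Isg15 has 3 overlapping matches and the others 2 each.
Isg15: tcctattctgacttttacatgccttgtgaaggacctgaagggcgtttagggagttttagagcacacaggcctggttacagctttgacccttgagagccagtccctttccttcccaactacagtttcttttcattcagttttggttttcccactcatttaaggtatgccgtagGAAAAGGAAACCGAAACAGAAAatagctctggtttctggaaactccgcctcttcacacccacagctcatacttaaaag
Ifit1: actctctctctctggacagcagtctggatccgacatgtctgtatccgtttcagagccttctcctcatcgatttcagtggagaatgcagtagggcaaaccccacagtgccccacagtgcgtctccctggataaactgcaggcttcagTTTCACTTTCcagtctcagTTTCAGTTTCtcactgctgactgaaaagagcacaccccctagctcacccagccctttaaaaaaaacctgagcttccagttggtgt
Ifit3: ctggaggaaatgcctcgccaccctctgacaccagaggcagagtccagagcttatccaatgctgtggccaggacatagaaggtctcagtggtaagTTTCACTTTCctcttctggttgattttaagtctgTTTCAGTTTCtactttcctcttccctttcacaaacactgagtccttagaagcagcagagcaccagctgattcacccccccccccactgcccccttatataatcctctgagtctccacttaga

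Targets of p53 and a list of genes named for the transitional alveolar state were higher in the epithelial gate. Of 27 p53 targets 16 were higher and 0 lower, with a median of 0.75, and Phlda3, a repressor of AKT signalling, was at 184 CPM against 31.7. Ccng1 was at 78.5 against 20.4, Cdkn1a at 567 against 196 and Gdf15 at 288 against 68.2, with 67.8% of Gdf15 UMIs in 3 cells. The list named for the transitional alveolar state, in which type 2 cells change into type 1 cells, had 14 of 18 genes higher and 0 lower, with a median of 1.14. Clu, clusterin, was at 934 against 157, the tight junction gene Cldn4 at 392 against 97.6, the keratin Krt7 at 312 against 78.7, and Sprr1a, of cornified envelopes, at 111 against 10.5. Krt8, the keratin used most often to mark that state, was at 1278 against 972 in cells with no other gate. Ciliated and club cell markers were higher in the gate too, at 1565 against 565 and 147697 against 124047 CPM. The part of airway cells in this list was not tested, and the sums do not show that cells were in that state.

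Surfactant and secretoglobin genes were lower, 13 of 18 with 1 higher and a median of −1.50. The phosphate transporter Slc34a2 was at 425 CPM against 1682 and Lamp3, of lamellar bodies, at 158 against 562. The higher member was Scgb3a1, an airway secretoglobin, at 1498 against 200.3, with 93.2% of UMIs in 3 cells. Immediate early genes were lower, 9 of 23 with 1 higher, and Egr1 was at 615 against 1735 and Jun at 1392 against 3710. Mitochondrial-encoded genes were lower as well, 10 of 13 with a median of −0.65.

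The genes farthest apart in epithelial cells were of mixed kinds. Retnla, a resistin-like secreted protein, was at 1669 CPM against 49.2 and at 2614 in irradiated wild-type, and among thinned cells with no other gate 16.7% against 2.07% had a UMI (24.3% against 12.9% unthinned). Clca1 and Tff2, of mucous cells, were at 266 CPM in 4 cells, against 1 cell of the control, and at 209 against 6.58 in 13 cells. Cd177 was at 82.2 against 0.627 and Reg3g, an antibacterial lectin, at 484 against 21.6 in 6 cells. Lower were Lyz1, the lysozyme of type 2 cells and macrophages, at 40.3 against 897, and Bex2 at 16.6 against 184. Akap12 was at 4.74 against 81.7, Nrn1 at 4.40 against 58.8, and Ccl17, a dendritic cell chemokine, at 2.37 against 80.4. In cells with no other gate Ccl22, another dendritic cell chemokine, was at 1.77 against 46.8 and Acoxl, an acyl-CoA oxidase-like gene, at 13.3 against 145. Macrophage and monocyte markers, a list that includes Lyz2, were at 3888 against 16184 CPM in the gate. In cells with no other gate they were at 3095 against 20375. Dendritic cell markers were at 138 against 108 in the gate and 11.1 against 55.5 in cells with no other gate. Which cells these genes came from was not tested.

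**Figure D4:**
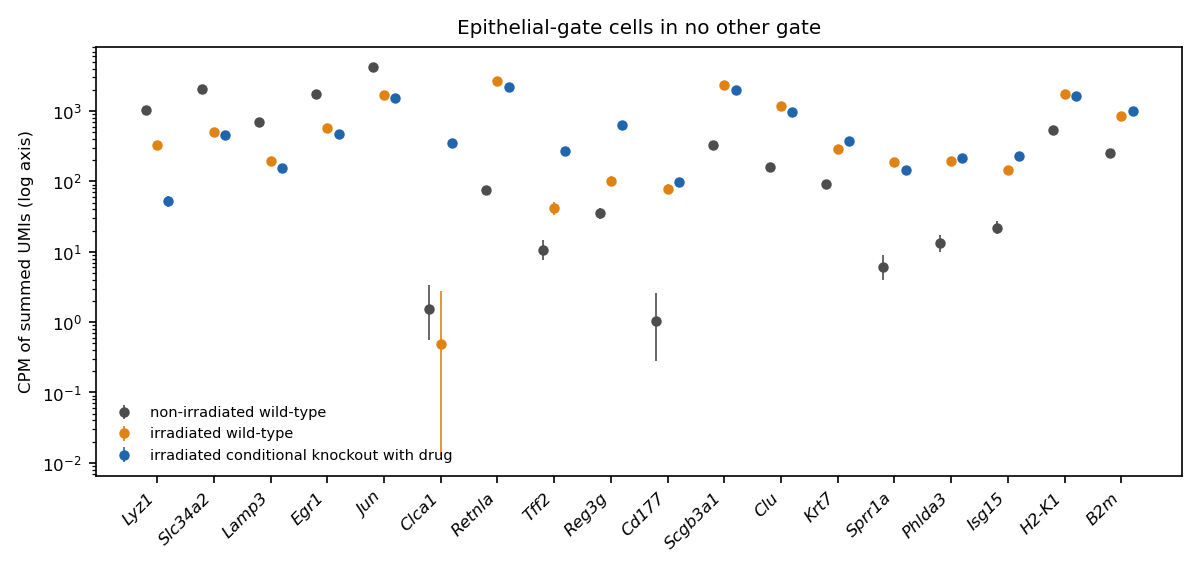
CPM (log axis) of epithelial genes in cells that passed only the epithelial gate (which excludes Ptprc), in the 3 libraries, with exact Poisson 95% intervals and 1 library per group. Isg15 is at 228 in the knockout library, 8.63-fold above the control, and Lyz1 at 52.3 against 1042.

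A few genes differed in every gate. Eif3j2, a subunit of translation initiation factor 3 that has a near-identical copy in the genome, was the 1 gene at least 2-fold higher in all 6 gates. It was at 22.7 CPM against 1.24 in T cells, 32.2 against 2.33 in B cells and 23.4 against 3.31 in fibroblasts. In irradiated wild-type the same gates were at 2.00, 2.63 and 2.92, so the knockout library alone stood apart. How the counting divided reads between the copies is not given in the sources used here. Mid1, an X-linked ubiquitin ligase at the edge of the pseudoautosomal region, was lower in all 6, at 36.4 CPM against 158 in T cells, 35.2 against 157 in B cells and 31.9 against 72.4 in fibroblasts. In irradiated wild-type Mid1 was at 183, 160 and 79.7, again on the control's side. Altogether 23 genes were lower in all 6 gates, among them Cldn5, Cdh5, Plvap and Sftpc, which belong to endothelial and type 2 cells. Cldn5, Cdh5 and Sftpc are themselves part of the marker sums given above, so those sums are not a separate measure for them.

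**Figure D5:**
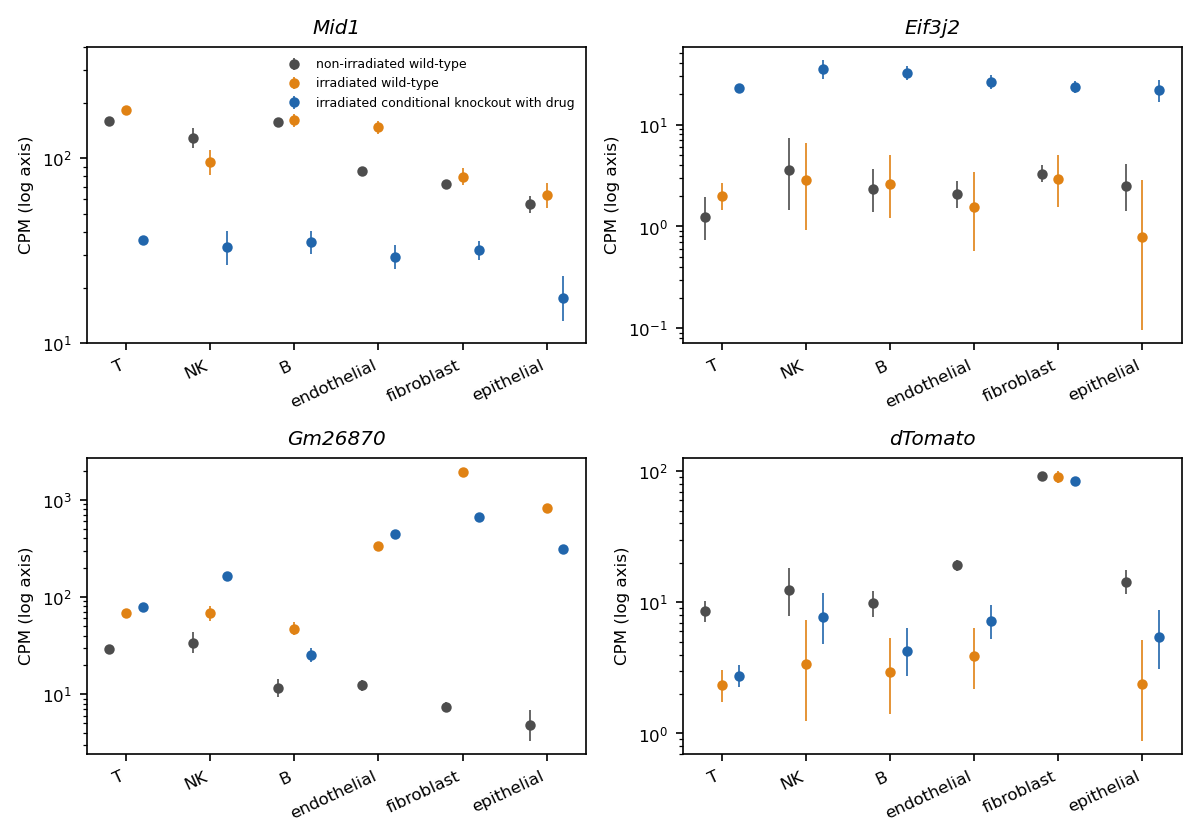
CPM (log axis) of genes that differed across gates, in each of the 6 gates and the 3 libraries, with exact Poisson 95% intervals and 1 library per group. Eif3j2 is at 22.7 in the knockout library's T cells against 1.24 in the control and 2.00 in irradiated wild-type, and Mid1 at 36.4 against 158 and 183.

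A red fluorescent protein sequence, dTomato, is among the features counted, and the labels used here do not say which cells were meant to carry it. It was found mainly in fibroblasts, at 85.1 CPM in the knockout library, 92.8 in the control and 90.5 in irradiated wild-type, and 30.7%, 37.2% and 35.4% of fibroblasts had a UMI. After thinning the shares were 6.81%, 7.92% and 6.95%, against 0.216%, 0.969% and 0.299% in T cells. The 3 libraries were close to each other in the gate where it was found.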

How the data were processed

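Gene-by-barcode matrices of UMI counts, deposited by the authors for each library and not normalized, were used as they are. The genome build is mm10 per the submitters' processing notes, and the software version 3.1.0 stands in the file header, per the file headers. No source used here names the aligner or its settings. Cells with at least 250 genes and at most 15% mitochondrial UMIs were kept, and the 6 gates were applied to raw UMIs. A cell could pass several gates (6.01% in the knockout library, 9.08% in the control), 23.2% and 26.1% passed none, and no doublet caller was run. Counts were summed per gate and library and divided by the gate's total to give CPM. Intervals are exact (Poisson or Clopper-Pearson) at 95%, and a Katz interval was used for ratios of shares. They and the floor of 3 UMIs cover counting error only. Thinned shares draw 1000 UMIs per cell (random seed 1) and leave out shallower cells. The 5 genes farthest apart in each direction per gate were named if they reached 20% of the highest gate's level and were still 1.5-fold apart in cells of only 1 gate, without genes of the gate, haemoglobin, ribosomal proteins, mitochondria, clone models, receptor segments and the Y chromosome, or Xist and Tsix. From each described list 2 to 4 members with the largest log2 ratio were added. Some genes that this rule names are not reported here. Members and gene lists (33, with 19 marker lists) were chosen with earlier results of these data known. Other genes named, and the cells of only 1 gate with no Ptprc UMI, were chosen after their values were seen. Alternatives were other gate thresholds, cells of only 1 gate, thinning, other amounts added to CPM, median-of-ratios scaling, stricter filters on cells, and no UMI minimum. The statistics were tested on simulated T cell sums with counting error only. Those sums held no spread between animals or preparations, so they cannot speak for such differences. The work used pandas 2.3.3, numpy 2.4.6 and scipy 1.17.1 on python 3.11.15, and matplotlib 3.10.9 for the plots.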

Additional observations from a re-analysis of the deposited data

How the results depend on the processing

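Of 27 alternative share ratios 20 moved by less than their counting interval and 0 turned direction. For T cells the ratio was 4.22 in cells of only 1 gate, 3.35 at a minimum of 1000 UMIs and 3.83 with the gate threshold raised by 1. For endothelial cells it was 0.199 in cells of only 1 gate, 0.215 with the threshold raised by 1 and 0.149 with no Ptprc UMI, and for fibroblasts 0.299 at a minimum of 1000 UMIs. The numbers of genes at least 2-fold apart moved by over 1.5 times in 42 of 78 alternatives. In cells of only 1 gate, the lower genes numbered 211 in B cells, 135 in T cells, 70 in NK cells, 40 in fibroblasts and 285 in epithelial cells, and endothelial cells had 333 higher and 216 lower. With cells thinned to 1000 UMIs there were 18 higher and 275 lower in B cells, 232 lower in T cells, 34 lower in NK cells, 287 higher in endothelial cells, 37 higher in fibroblasts, and 92 higher and 265 lower in epithelial cells. With 1 CPM added there were 102 and 1359 in B cells, 86 and 1224 in T cells, 88 higher in NK cells, 872 and 1876 in endothelial cells, 250 and 315 in fibroblasts and 822 lower in epithelial cells. With 20 CPM added there were 18 and 255 in B cells, 9 and 146 in T cells, 17 and 68 in NK cells, 245 and 444 in endothelial cells, 28 and 54 in fibroblasts and 211 and 179 in epithelial cells. With no other gate and no Ptprc UMI there were 180 and 160 in endothelial cells, 59 and 40 in fibroblasts and 285 lower in epithelial cells. Median-of-ratios scaling took out a median log2 ratio of −0.16 in the endothelial gate and 0.22 in the epithelial gate. It thereby raised the ratios in the endothelial gate and lowered them in the epithelial gate. After thinning the log2 ratio was −0.021 for Ube2c in B cells, −0.036 for Psrc1 in fibroblasts and −0.55 for Ifit3b in epithelial cells, and the interferon-stimulated list in epithelial cells had a median of −0.34 over the 1 member that still had 30 UMIs, Ifi27l2a. With no other gate and no Ptprc UMI it was 0.018 for Ifih1 and −0.061 for Mpo in endothelial cells, and −0.013 for Ctsg and −0.12 for Mmp9 in fibroblasts. The causes were not tested beyond the number of genes or cells left. Of 269 list medians 256 moved by at most 1.5-fold. Of 1436 values of named genes 1181 moved by at most 1.5-fold, 248 moved by over 1.5-fold and 7 turned direction. A turn was counted only where the value as given was at least 1.5-fold, so smaller values can change sign without being counted. No paired analysis was possible because each group has 1 library. Depth limits what could be tested, from 6892 genes in NK cells to 12830 in fibroblasts.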

Other observations

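Gm26870, an unnamed gene model, was at 668 CPM in fibroblasts of the knockout library against 7.38 in the control, with 6307 UMIs against 254, and at 1914 in irradiated wild-type. It was singled out after its values were seen. A UMI of it was in 171 and 77 fibroblasts. It was also higher in the other gates: 449 against 12.3 CPM in endothelial gate cells, 312 against 4.86 in epithelial cells, 164 against 33.9 in NK cells, 78.9 against 29.0 in T cells and 25.4 against 11.6 in B cells.

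Set against irradiated wild-type, the shares of the knockout library gave a ratio of 1.12 for T cells, 1.02 for endothelial cells, 0.945 for epithelial cells, 1.33 for fibroblasts, 0.802 for NK cells and 0.785 for B cells. In T cells Irgm1 was at 94.2 CPM in the knockout library and 51.7 in irradiated wild-type, and Klf2 at 836 and 397. In fibroblasts Lcn2 was at 388 and 199. In endothelial cells with no other gate and no Ptprc UMI Vwf was at 955 and 152 and Kdr at 964 and 1939.5.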
